A study of Mus musculus with 4 samples.

Results

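The p53 family of transcription factors has 3 genes in the mouse, Trp53, Trp63 and Trp73, and their chromatin was read here in sorted mammary epithelium. The members were taken by name as 3 of the 21887 protein-coding genes counted, each as its annotated span with 2000 bases added on either side. To these were added the authors' regions of open chromatin inside those spans, the co-accessibility scores of these regions, and the motif columns that carry the genes' names. The assay was single-nucleus ATAC-seq, in which the Tn5 transposase tags accessible DNA and a combination of barcodes tells the nuclei apart. Nuclei came from CD1 mice, an outbred strain labelled wild type, at embryonic day 18 (fetal) or at 8 weeks of age (adult), with 2 libraries a stage. At both stages the cells had been sorted for the epithelial surface protein EpCAM and against other lineages. The labels do not give the animals' sex or how many animals were pooled into a library.

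The 3 proteins share a DNA-binding domain and recognise closely related sequences. p53 is a tumour suppressor that is held at low level by the ubiquitin ligase Mdm2, and after stress it activates genes of cell-cycle arrest and apoptosis. p63 is a regulator of stratified and glandular epithelium, is needed for the formation of the mammary bud, and in the adult gland marks the basal, myoepithelial layer. p73 is known for roles in multiciliated cells and in the nervous system. Trp63 and Trp73 are each transcribed from an outer and an inner promoter, giving proteins with or without the transactivating end.

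The libraries held 882 and 1695 fetal nuclei and 2465 and 2804 adult nuclei, with 6028168 to 19304830 reads in a library and a median of 4420 to 7488 reads in a nucleus. No barcode was shared between libraries. Each nucleus carries a class number from 1 to 14 given by the authors. Classes were named from markers that hold none of the 3 genes: classes 1, 8 and 4 were basal-like, classes 3, 7, 5 and 9 luminal progenitor-like, classes 2 and 11 mature luminal-like, class 10 luminal-like and class 6 stromal-like. Classes 12, 13 and 14 stayed unnamed. Class 12 had 7 of 12 basal markers raised but held Csn3, a milk protein gene, among its leading genes, and class 14 had 6 of 12 basal and 6 of 10 mature luminal markers raised at a median of 8031 reads in a nucleus. Apart from class 6, nearly all nuclei of a class came from 1 stage: classes 1 and 8 were adult, and classes 4 and 12 fetal. No doublet caller was run.

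Trp63 lay at chr16:25683763-25892088 of mm10, a span of 208326 bases. Trp73 lay at chr4:154056249-154139875 with 83627 bases, and Trp53 at chr11:69580348-69591873 with 11526 bases. The snRNA gene Gm24928 lay inside the Trp63 span and the snoRNA gene Gm26036 inside that of Trp73. Wrap53, a gene on the other side of the Trp53 start, ended at 69580250 and thus reached into the 2000 bases added there, so reads of both genes cannot be told apart at that end.

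RefSeq promoter windows of GRCm38.p6, from 250 bases before to 50 bases after a start, were at hand for Trp53 and for 2 starts of Trp73, and are shown because reads were counted in them. None was at hand for Trp63. Trp53 has its window at chr11:69580109-69580408 on the plus strand, and Trp73 at chr4:154139826-154140125 for the outer start and chr4:154097124-154097423 for the inner one, both on the minus strand. Capitals mark GGGCGG, the GC box, searched on both strands.
Trp53: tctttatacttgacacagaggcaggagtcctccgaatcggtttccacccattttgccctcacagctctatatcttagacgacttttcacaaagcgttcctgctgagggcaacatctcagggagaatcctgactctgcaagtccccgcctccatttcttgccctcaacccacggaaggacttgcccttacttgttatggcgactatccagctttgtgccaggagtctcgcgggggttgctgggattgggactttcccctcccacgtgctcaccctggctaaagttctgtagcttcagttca
Trp73 outer start: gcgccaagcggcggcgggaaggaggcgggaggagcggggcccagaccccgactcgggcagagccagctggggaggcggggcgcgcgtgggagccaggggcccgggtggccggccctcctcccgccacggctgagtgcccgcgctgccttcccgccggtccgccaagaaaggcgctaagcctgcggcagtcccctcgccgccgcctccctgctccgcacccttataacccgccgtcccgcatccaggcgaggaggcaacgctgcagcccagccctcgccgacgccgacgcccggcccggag
Trp73 inner start: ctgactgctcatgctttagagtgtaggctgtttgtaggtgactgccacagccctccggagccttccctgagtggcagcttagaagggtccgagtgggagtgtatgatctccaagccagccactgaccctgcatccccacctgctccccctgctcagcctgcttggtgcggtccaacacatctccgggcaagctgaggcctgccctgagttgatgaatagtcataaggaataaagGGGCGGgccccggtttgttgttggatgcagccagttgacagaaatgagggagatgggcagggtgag

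Over the listed nuclei, the Trp53 window held 370 reads, which placed it at percentile 71.8 of all 32851 promoter windows. The outer Trp73 window held 144 reads, at percentile 59.6, and the inner one 5 reads, at percentile 28.2. Among the 3 windows only the outer Trp73 window lay in a deposited promoter region. By library, Trp53 window reads numbered 38 and 121 (fetal) against 110 and 101 (adult), which is 6.30 and 7.66 against 8.10 and 5.23 CPM (counts-per-million) over all reads of a library. Outer Trp73 window reads numbered 15 and 45 against 43 and 41, or 2.49 and 2.85 against 3.17 and 2.12 CPM. Both overlapped between the stages. The GC box was found once, in the inner Trp73 window, against 35.7% of all windows that hold at least 1. GC content was 77.7% in the outer and 57.7% in the inner Trp73 window and 52.7% in the Trp53 window, the last equal to the median window. TATAAA, searched on both strands, was found in the Trp53 window, as in 13.6% of all windows. The decamer consensus of p53 response elements also had 1 match there and none in the Trp73 windows, against 8.36% of windows with a match. A match is a run of letters and does not show that a protein binds there.

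Across classes, Trp63 had the widest range of the 3 genes in CPM not scaled for the length of the span. Levels by class are given as CPM, here reads over the span and its flanks relative to all reads of the class's nuclei, with exact Poisson intervals at 95% that cover counting error only. Because both ends of a fragment are listed as reads, these intervals are too narrow. The class numbers were deposited for these same nuclei and may rest on the same reads, so the order of classes is a description without a test. Trp63 reached 272 CPM in the basal-like class 1 (253 to 292), from 786 reads in 619 nuclei. It stood at 166 in class 8, 158 in class 4, 156 in class 12 and 120 in class 14, 4 neighbours whose intervals overlapped in turn. All luminal progenitor-like classes came next, with 89.2 in class 9, 82.2 in class 3, 79.6 in class 5 and 57.2 in class 7. The lowest levels were 30.7 in the stromal-like class 6 and 27.0 in the mature luminal-like class 2 (23.8 to 30.5).

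**Figure D1:**
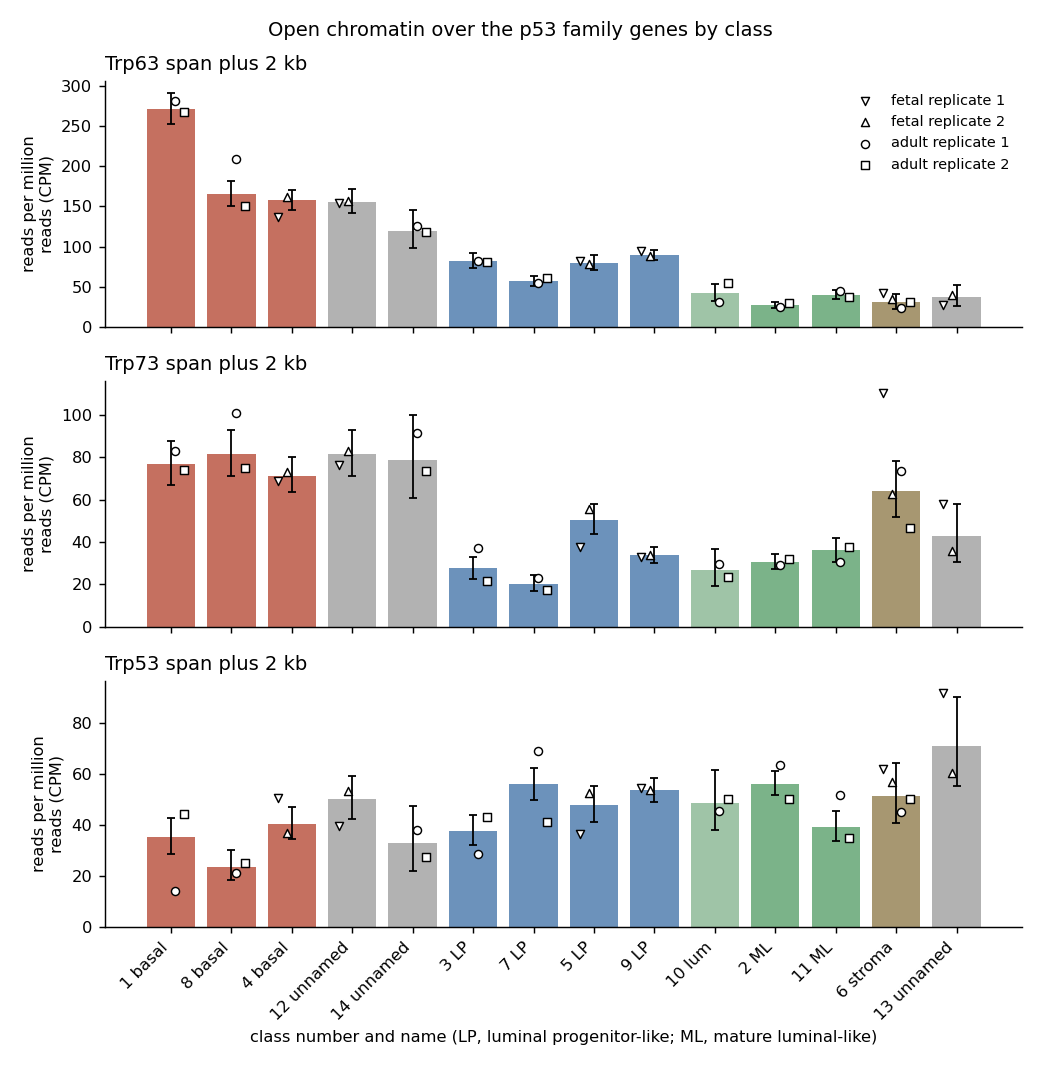
Reads over each gene's span plus 2000 bases on either side, as CPM over all reads of the class (y axis), for the 14 classes (x axis); bars are all nuclei of a class with exact Poisson intervals at 95%, and points are libraries with at least 20 nuclei in the class. Trp63 ranges from 272 CPM in class 1 to 27.0 CPM in class 2, Trp73 is highest in the basal-like classes and classes 12 and 14, and Trp53 is lowest in class 8.

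The libraries gave the same picture for Trp63. Adult basal-like nuclei (classes 1 and 8) had 247 CPM in replicate 1 and 210.5 CPM in replicate 2. Fetal basal-like nuclei (class 4) had 137 and 162 CPM, below both of these pooled adult values. Taken alone, class 1 had 281 and 268 CPM in the adult libraries. Class 8 had 209 and 151 CPM, which overlapped the values of class 4. Fetal class 12 had 154 and 157 CPM, inside the range of fetal class 4. Luminal progenitor-like nuclei had 90.8 and 84.9 CPM in the fetal libraries and 64.1 and 70.4 CPM in the adult ones, so here the fetal values were the higher ones. Adult mature luminal-like nuclei had 29.1 and 32.4 CPM. The log2 ratio of basal-like over luminal progenitor-like nuclei of the same library was 0.59 and 0.93 at the fetal stage and 1.95 and 1.58 at the adult stage. Both adult ratios were above both fetal ratios, and this difference was not tested.

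Trp73 had its higher levels in the basal-like classes and in classes 12 and 14, over a narrower range than Trp63, with the stromal-like class next at 64.2 CPM. It stood at 81.5 CPM in class 12, 81.5 in class 8, 78.7 in class 14, 76.8 in class 1 and 71.4 in class 4, with overlapping intervals. The interval of class 4 also overlapped that of the stromal-like class 6. The lowest Trp73 level was 20.4 CPM in class 7. By library, adult basal-like nuclei had 91.6 and 74.6 CPM and fetal ones 69.0 and 73.0 CPM. Luminal progenitor-like nuclei had 34.4 and 40.5 CPM in fetal and 27.9 and 19.5 CPM in adult libraries, below every basal-like value. The stromal-like class had 110.5 and 62.7 CPM in fetal and 73.4 and 46.7 CPM in adult libraries. Those 4 values rest on 16 to 31 reads each and spread more widely than the basal-like values.

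Trp53, which is transcribed in most tissues, had no basal-like maximum. Its class levels ran from 23.6 CPM in class 8 (18.2 to 30.1) to 71.1 CPM in class 13 (55.2 to 90.1), and the intervals of all neighbouring pairs in that order overlapped. Adult basal-like nuclei had 17.3 and 34.8 CPM, which rest on 28 and 139 reads. Fetal basal-like nuclei had 50.5 and 37.0 CPM. Adult mature luminal-like nuclei had 60.8 and 44.1 CPM. The share of a class's reads that lie in promoter regions differed between classes, from 17.9% in class 8 to 27.1% in class 7, and over the 14 classes the Trp53 level had a Pearson r of 0.61 with it, against -0.24 for Trp63 and -0.36 for Trp73. The points of this description share their libraries, and its part in the Trp53 levels was not tested. Per kilobase of counted sequence, class levels were 1.52 to 4.58 CPM for Trp53, 0.127 to 1.28 for Trp63 and 0.232 to 0.931 for Trp73. These values cannot rank the genes, since a promoter region in Wrap53 counts toward Trp53 and the Trp63 span held no deposited promoter region.

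Likeness to each member over classes was the Pearson r of log2(CPM + 1) over the 14 classes among genes with at least 500 reads, and says nothing of shared control. For Trp63 the top 5 were Gprin3 (0.96), Krt14 (0.95), Slc25a13 (0.95), Stox2 (0.95) and Ripor2 (0.95). Krt14, a keratin of basal epithelium, is also one of the markers that named the classes. For Trp73 they were Gask1b (0.95), Slc8a1 (0.95), Pcdh7 (0.93), Has2 (0.93) and Rnf150 (0.91). Slc8a1 encodes a sodium-calcium exchanger and Has2 a hyaluronan synthase. For Trp53 they were Rbbp4 (0.96), Phf23 (0.96), Zbtb8os (0.95), Gabarap (0.95) and Nxf1 (0.95), among them a histone-binding protein (Rbbp4) and an mRNA export factor (Nxf1). Rbbp4 and Zbtb8os are neighbours, as are Phf23 and Gabarap, and with the added flanks each pair shares counted sequence. The 99th percentile of r over all genes compared was 0.82, 0.78 and 0.87 for the 3 members in the same order.

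Reads along the Trp63 span were concentrated in a few places. The span held 26 deposited distal regions of 1000 bases and no deposited promoter region. They cover 12.3% of the counted bases and took 63.05% of the 4850 Trp63 reads. Within 500 bases of the span's lower end, chr16:25683763, only 12 reads were found in all nuclei, and 0 of them in adult basal-like nuclei. The most-read region, chr16:25779547-25780546, began 95.8 kb above that end and held 702 reads. The next were chr16:25843603-25844602 with 370 reads, chr16:25860539-25861538 with 216, chr16:25834931-25835930 with 197, chr16:25875625-25876624 with 176 and chr16:25811334-25812333 with 175. All lie inside the Trp63 gene, and whether each is exonic or intronic was not determined. No promoter window or transcript annotation was at hand for Trp63, so its outer and inner promoters were not placed. The 12 reads at the lower end thus do not show whether a Trp63 promoter was open. Whether any of the regions listed as distal holds a promoter was not tested.

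**Figure D2:**
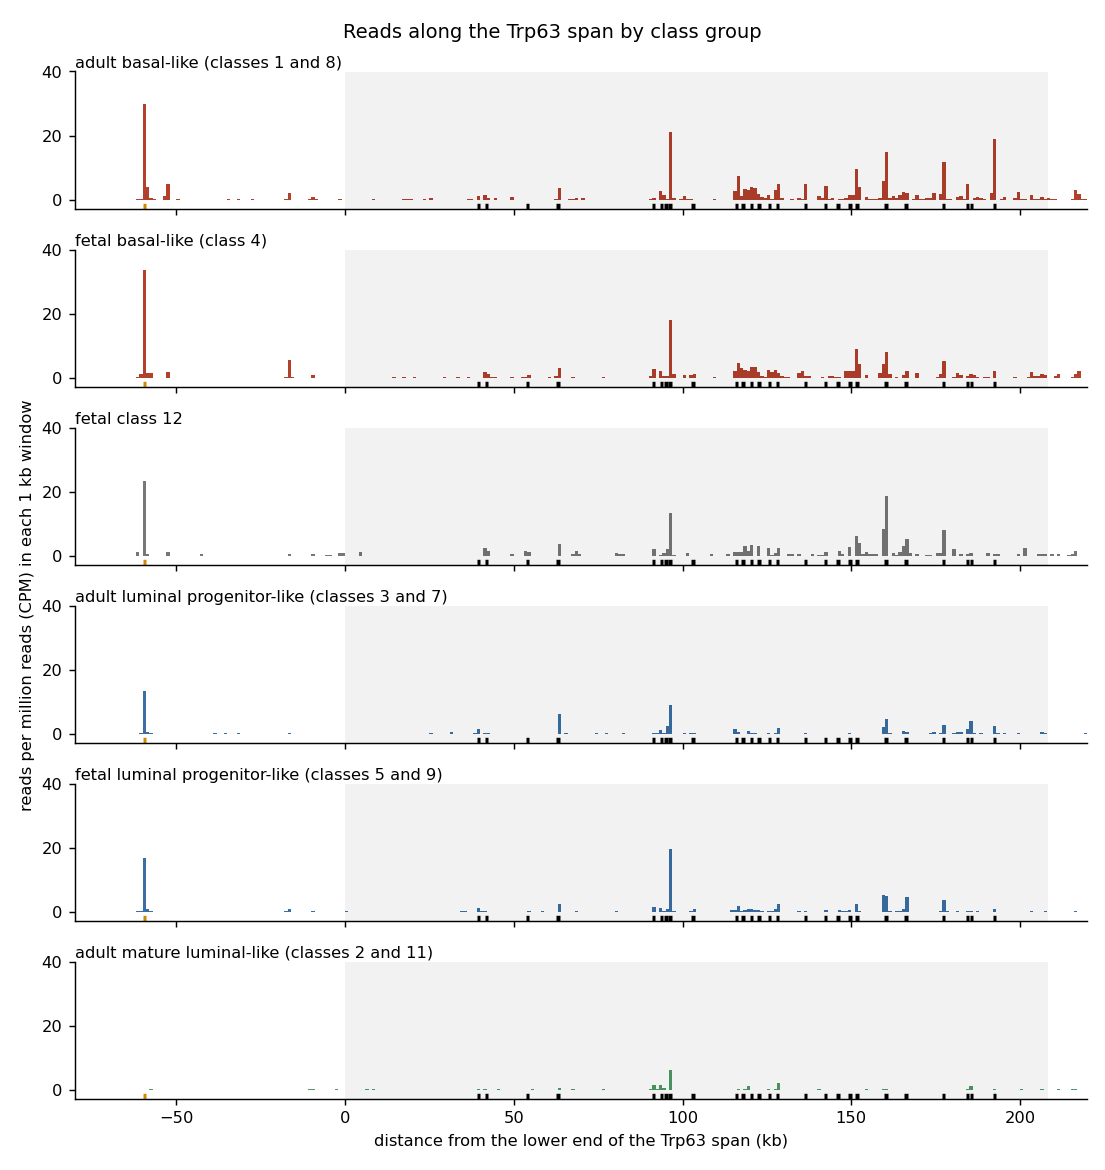
CPM over all reads of the class group in 1 kb windows (y axis) against the distance from the lower end of the Trp63 span (x axis) for 6 groups of classes; grey shading marks the gene span, black ticks the 26 deposited distal regions and the orange tick the linked region below the span. The windows near 96, 160, 177 and 192 kb stand out in adult basal-like nuclei, and the mature luminal-like nuclei show few reads apart from the window at 96 kb.

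Of the 26 regions, 14 had their highest CPM in a basal-like class, 10 of them in class 1, and 4 more had it in class 12. Among all 142618 distal regions with at least 22 reads, the fewest in a Trp63 region, 20.9% were highest in a basal-like class and 8.19% in class 12. The Trp63 regions held a median of 67 reads and 11 of them held 60 or fewer, so the top class of a single region can rest on few reads. The region at 151.2 kb, chr16:25834931-25835930, with 197 reads, had its highest class level, 14.9 CPM, in class 1. Adult basal-like nuclei had 16.7 and 11.8 CPM, fetal basal-like nuclei 16.5 and 10.9 CPM and fetal class 12 17.5 and 6.88 CPM. In luminal progenitor-like nuclei it had 0.426 and 0 CPM in adult and 1.01 and 3.38 CPM in fetal libraries, from 4 and 32 reads. Adult class 14 had 0 and 10.2 CPM, from 0 and 6 reads. The region at 95.8 kb was open in luminal progenitor-like nuclei too, with 29.3 and 16.2 CPM in fetal and 8.31 and 10.1 CPM in adult libraries, against 17.5 and 18.7 CPM in fetal and 18.6 and 22.5 CPM in adult basal-like nuclei. In fetal libraries its basal-like and luminal progenitor-like values thus overlapped, and in adult libraries they did not. The region at 165.7 kb, chr16:25849499-25850498, had its highest class level, 9.69 CPM, in the fetal luminal progenitor-like class 5 and had 7.12 CPM in class 12.

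**Figure D3:**
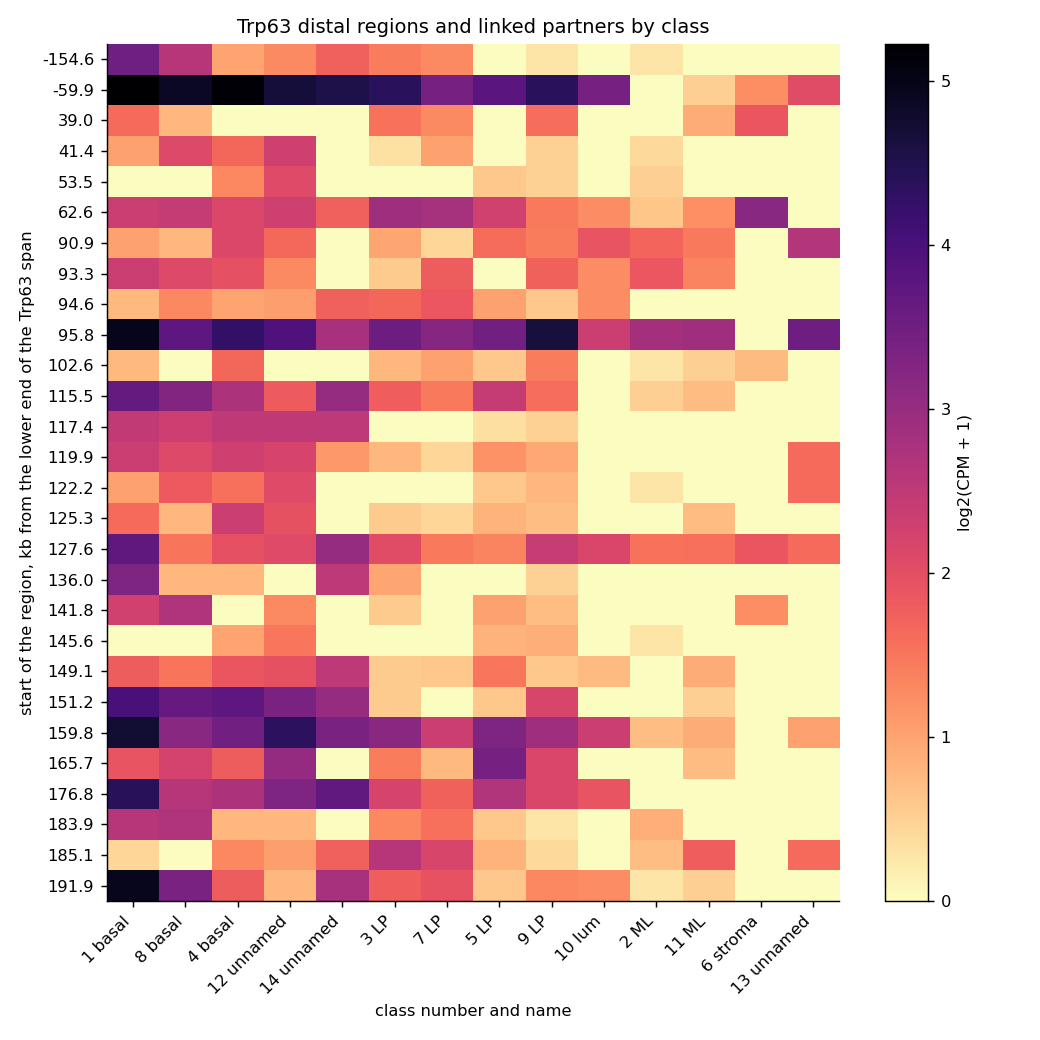
Level of the 26 distal regions of the Trp63 span and of 2 linked regions below it (rows, by the distance of their start from the lower end of the span) in the 14 classes (columns), as log2 of CPM plus 1. The rows at -59.9, 95.8, 151.2, 159.8, 176.8 and 191.9 kb are darkest in class 1, and the row at 191.9 kb is dark in the adult classes 1 and 8 but pale in the fetal classes 4 and 12.

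Fetal and adult libraries were compared first over all nuclei. Trp63 was more open in the fetal libraries, and Trp73 and Trp53 did not pass the test. In the stage comparisons CPM refers to reads in tested features only, after TMM adjustment, so the values are not those given by class. In such sums over a library, fewer nuclei of a type and less signal in each nucleus cannot be told apart. Of 18808 genes tested, 22.2% passed an adjusted p of 0.05 (edgeR quasi-likelihood test, Benjamini-Hochberg), 11.3% as higher in fetal and 10.9% as higher in adult libraries, so 1 call among 3 members is not far from that background. Trp63 had 131 and 144 CPM in the fetal libraries and 89.4 and 113 CPM in the adult ones, that is 138 ± 9.40 against 101 ± 16.9 (SD, n = 2 each). Every fetal value was above every adult value, and the log2 change was 0.44 (SE 0.13, edgeR adjusted p = 0.0238). Left without fetal replicate 2, the edgeR adjusted p was 0.213 (log2 0.36), and without adult replicate 1 it was 0.101 (log2 0.29). Trp73 had 61.0 and 71.7 CPM in fetal and 50.2 and 54.0 CPM in adult libraries, with no overlap, a log2 difference of 0.36 and an edgeR adjusted p of 0.0621. That p was 0.0440 without adult replicate 2 and 0.0124 with the replicate number as a block. Trp53 had 65.8 and 68.3 CPM in fetal and 67.0 and 56.1 CPM in adult libraries, which overlapped, with a log2 difference of 0.13 (edgeR adjusted p = 0.528).

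The make-up of the libraries differed between the stages. Basal-like nuclei made up 15.3% and 20.4% at the fetal and 13.7% and 25.6% at the adult stage. Luminal progenitor-like nuclei were 66.8% and 58.7% in fetal and 37.7% and 29.1% in adult libraries. Mature luminal-like and luminal-like nuclei, where Trp63 was low, were 0.340% and 0.472% in fetal but 44.0% and 40.5% in adult libraries. Class 12, where Trp63 was high, held 10.4% and 14.6% of fetal nuclei and 0 adult nuclei. Of the Trp63 reads, basal-like nuclei gave 21.8% and 29.9% at the fetal but 42.5% and 52.9% at the adult stage. Luminal progenitor-like nuclei gave 59.5% and 47.7% of them at the fetal and 32.5% and 22.8% at the adult stage. The part of this make-up in the whole-library difference was not tested beyond the comparison within basal-like nuclei.

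Within basal-like nuclei (classes 1, 4 and 8) the direction for Trp63 was the opposite: the adult libraries were higher. Of 16497 genes tested in these nuclei, 5.96% were called by the same edgeR test, 2.93% as higher in fetal and 3.04% as higher in adult libraries. Trp63 had 186 and 230 CPM in fetal against 333 and 298 CPM in adult basal-like nuclei, or 208 ± 30.9 against 315 ± 24.7 (SD, n = 2 each). The stages did not overlap, and the log2 change of fetal over adult was -0.58 (SE 0.17, edgeR adjusted p = 0.0313). The call rests on 133 and 505 fetal and 401 and 851 adult reads. It was lost without fetal replicate 1 (edgeR adjusted p = 0.264) and without adult replicate 1 (0.153), with DESeq2 (0.0935), and without class 1, where the log2 change was -0.36 and the edgeR adjusted p 0.490. Trp73 had 93.9 and 103 CPM in fetal and 123 and 104 CPM in adult basal-like nuclei (log2 -0.18, edgeR adjusted p = 0.716). Trp53 had 68.7 and 52.4 CPM in fetal and 24.9 and 48.6 CPM in adult basal-like nuclei (log2 0.61, edgeR adjusted p = 0.251). The Trp53 values did not overlap between the stages, but 1 of the adult values rests on 30 reads. Fetal and adult basal-like nuclei fall in different classes, and stage cannot be told apart from any handling that differed between the stages.

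**Figure D4:**
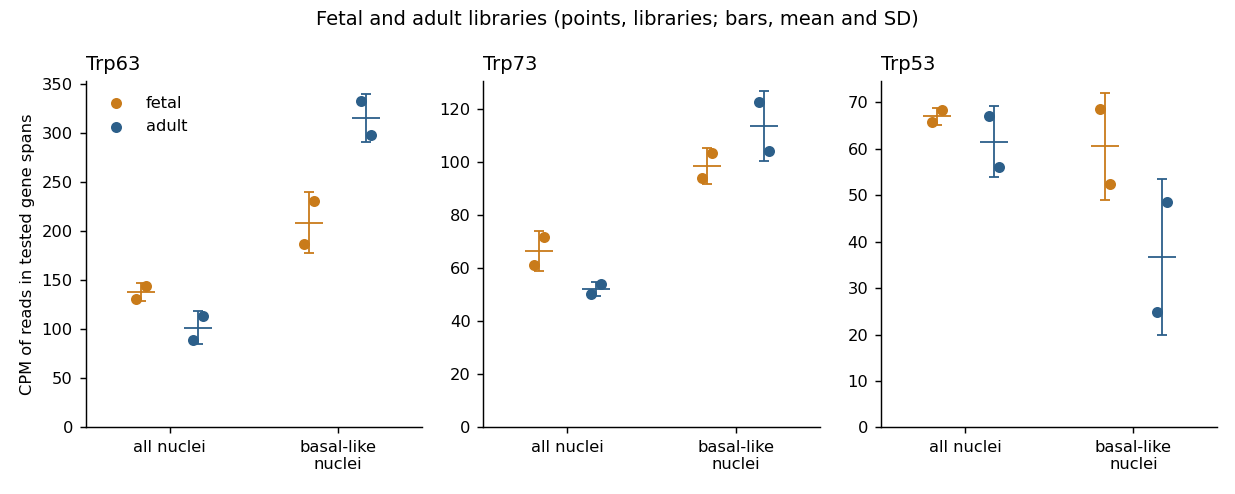
CPM of reads over each gene's span in the fetal and adult libraries (points; horizontal lines and bars are the mean and SD of 2 libraries), for all nuclei and for basal-like nuclei only. For Trp63 the fetal libraries are above the adult ones over all nuclei (138 against 101 CPM) and below them in basal-like nuclei (208 against 315 CPM).

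Of the 26 distal regions of Trp63, 24 had enough reads to test, 5 were higher in fetal libraries, 2 were higher in adult libraries and 17 did not pass. Over all 122865 distal regions tested, 35.3% were called, 16.6% as higher in fetal and 18.8% as higher in adult libraries. The 7 calls among 24 Trp63 regions were thus a smaller share than the background and are no result about the group. DESeq2 called 3 of the 24 regions, so most of the 7 edgeR calls did not pass with DESeq2. The median log2 difference was 0.50 for the 24 regions and -0.01 for all tested. The region at 165.7 kb, the one highest in class 5, had 13.3 and 11.3 CPM in fetal and 1.82 and 2.88 CPM in adult libraries (log2 2.33, SE 0.44, edgeR adjusted p = 5.66e-05). At 95.8 kb the values were 50.2 ± 13.2 against 23.1 ± 4.56 CPM (SD, n = 2 each; log2 1.08, edgeR adjusted p = 0.000206). Both calls held when any 1 library was left out. The region at 125.3 kb, chr16:25809056-25810055, held only 49 reads, 14 and 22 in fetal and 2 and 11 in adult libraries. This region (log2 2.25) and those at 151.2 kb (log2 1.04) and 159.8 kb (log2 0.73) were called with edgeR adjusted p of 0.0229, 0.0209 and 0.0299. Leaving out 1 library raised these to between 0.0544 and 0.194 in the cases where the call was lost, for the first without fetal or adult replicate 1, for the second without fetal replicate 2 or either adult library, and for the third without any 1 of the 4 libraries.

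The region at 191.9 kb, chr16:25875625-25876624, was the main adult-high region. Over all nuclei it had 3.42 and 3.23 CPM in fetal and 7.48 and 14.01 CPM in adult libraries (log2 -1.71, SE 0.44, edgeR adjusted p = 0.00230, or 0.119 without adult replicate 2). Within basal-like nuclei the gap was wider, with 9.45 ± 2.08 CPM in fetal against 68.7 ± 9.67 CPM in adult libraries (SD, n = 2 each; log2 -2.77, SE 0.57, edgeR adjusted p = 0.00189). Those values came from 2 and 8 fetal and 29 and 82 adult reads, and without adult replicate 1 the edgeR adjusted p was 0.394 at a log2 change of -2.97, a fit in which no distal region at all was called. By class it had 29.4 CPM in class 1 and 9.46 CPM in class 8, against 2.43 CPM in class 4 and 0.712 CPM in class 12. The other adult-high region, chr16:25867632-25868631 at 183.9 kb, had 0 and 1.45 CPM in fetal and 3.65 and 4.58 CPM in adult libraries (edgeR adjusted p = 0.0338). Its p rose to 0.112 without fetal replicate 1 and 0.0817 without adult replicate 1.

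In basal-like nuclei only 8 of the 26 Trp63 regions had enough reads to test. The region at 191.9 kb was the 1 called, against 10.7% of 27917 distal regions tested there, 4.88% as higher in fetal and 5.85% as higher in adult libraries. No region was called as higher in fetal basal-like nuclei by edgeR; at an unadjusted p under 0.05 that count was also 0, and DESeq2 called 1 of the 8 in either direction. The region at 95.8 kb, called over all nuclei, had 73.5 ± 8.03 against 73.5 ± 13.4 CPM (SD, n = 2 each) in basal-like nuclei, and its sign turned under several settings. The region at 151.2 kb had 55.1 ± 12.3 against 50.9 ± 9.46 CPM there. The region at 159.8 kb, called as higher in fetal libraries over all nuclei, had lower fetal values in basal-like nuclei, 55.9 and 34.1 CPM against 76.8 and 57.1 CPM in adult libraries, with no overlap (log2 -0.64, SE 0.44, edgeR adjusted p = 0.383). At 127.6 kb the basal-like values were 0 and 16.4 CPM in fetal and 10.7 and 32.2 CPM in adult libraries, which overlapped (log2 -1.07, edgeR adjusted p = 0.472). The region at 176.8 kb had 7.98 and 28.7 CPM in fetal against 78.9 and 32.2 CPM in adult basal-like nuclei (log2 -1.29, edgeR adjusted p = 0.153), with no overlap, and passed only without adult replicate 2 (edgeR adjusted p = 0.0380). Over all nuclei it had 11.8 ± 0.396 against 8.93 ± 2.07 CPM, and the region at 127.6 kb 6.69 ± 4.01 against 7.83 ± 2.82 CPM, neither of them called. Among all calls in basal-like nuclei, 45.5% were higher in fetal libraries with TMM scaling and 30.5% when scaled to total reads, which moved the median log2 value from -0.03 to -0.23.

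Trp73 had 8 distal and 2 promoter regions, and 5 of these 10 were highest in a basal-like class, against 20.9% of all distal and 17.4% of all promoter regions with at least 22 reads. The most-read distal region was chr4:154071159-154072158, with 21.7 and 15.3 CPM in adult and 19.6 and 18.7 CPM in fetal basal-like nuclei, and its highest level, 34.9 and 22.0 CPM, in class 12. Luminal progenitor-like nuclei had 0.426 and 1.95 CPM in adult and 4.81 and 2.01 CPM in fetal libraries. Over all nuclei it had 26.5 and 21.6 CPM in fetal and 11.9 and 13.9 CPM in adult libraries, and it was the 1 Trp73 region called (log2 0.88, SE 0.27, edgeR adjusted p = 0.0103). This 1 call among 8 stands beside 35.3% of all distal regions called, 16.6% as higher in fetal libraries, and is no result about the group. The p was 0.0604 without fetal replicate 1, 0.108 without adult replicate 1 and 0.0906 with DESeq2, which called none of the 8. In basal-like nuclei the same region had 77.5 ± 2.38 against 65.4 ± 13.1 CPM (SD, n = 2 each; edgeR adjusted p = 0.690); of the 3 regions tested there edgeR called 0, none had an unadjusted p under 0.05, and DESeq2 called 0. Among all distal regions tested in basal-like nuclei 10.7% were called, and 0 of 3 is no result about the group. The second distal region by reads, chr4:154105096-154106095 with 286 reads, had 13.9 ± 0.253 against 12.5 ± 2.17 CPM. The others, from 154064973, 154080737, 154090453, 154092870, 154101920 and 154108977, held 46 to 98 reads and were not called. Of these, chr4:154090453-154091452 had 8.67 and 7.76 CPM in adult basal-like nuclei and 0 reads in mature luminal-like nuclei of either adult library.

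Promoter regions of Trp73 and Trp53 did not pass the test between the stages, against 21.5% of 18570 promoter regions called by edgeR. None of the 4 had an unadjusted p under 0.05 in edgeR, and DESeq2 called 0. The region over the outer Trp73 start, chr4:154139343-154140342, had 19.2 and 24.4 CPM in fetal and 19.7 and 20.3 CPM in adult libraries (log2 0.16, edgeR adjusted p = 0.759). Over the named epithelial groups its mean lay between 3.37 CPM in adult basal-like and 6.22 CPM in fetal luminal progenitor-like nuclei, with the adult basal-like nuclei lowest. The region chr4:154141306-154142305 lay outside the gene and 49 bases from Wrap73 (34.9 ± 11.6 against 34.5 ± 8.89 CPM). For Trp53, chr11:69580934-69581933 inside the gene had 64.1 ± 4.39 against 67.6 ± 5.96 CPM (edgeR adjusted p = 0.852). The region chr11:69578731-69579730 lay in Wrap53 and had 92.0 ± 1.75 against 86.8 ± 3.57 CPM (SD, n = 2 each; edgeR adjusted p = 0.751). Together these promoter regions took most of the Trp53 reads: 71.4% of 2609 reads had their midpoint in them. No distal region lay in the Trp53 span.

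Co-accessibility tied some of the Trp63 regions to each other and to a region below the gene. Cicero gives each pair of regions a score for how closely they open together. The deposited scores name no library, carry no replicate and are given as the authors' values. Of 1565 pairs with an end in a Trp63 region, 25 had a score of at least 0.25, which is 1.60%, against 0.514% of all 12719512 lines. Of these 25, 11 joined a pair of Trp63 regions. Most Trp63 regions had no score of 0.25 or more, and that at 165.7 kb had none of 0.1 or more. The share over all lines was not matched for the distance between regions. The highest score, 0.495, joined the region at 159.8 kb with chr16:25623891-25624890, a distal region 58.9 kb below the gene. That region was joined to 9 Trp63 regions at 0.25 or more and to 12 at 0.1 or more. Further scores with it were 0.466 for the region at 151.2 kb, 0.407 for that at 115.5 kb, 0.382 for that at 119.9 kb and 0.372 for that at 191.9 kb. The region at 191.9 kb also scored 0.409 with chr16:25529148-25530147, which lies 154 kb below the gene.

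The linked region at chr16:25623891-25624890 had its highest class level, 36.3 CPM, in class 1. It had 37.8 and 30.3 CPM in adult and 38.1 and 34.1 CPM in fetal basal-like nuclei, 19.1 and 25.7 CPM in class 12, and 13 and 14.8 CPM in adult and 14.4 and 19.2 CPM in fetal luminal progenitor-like nuclei. Adult mature luminal-like nuclei had 0 and 0.244 CPM. Over all nuclei it was higher in fetal libraries, with 45.4 and 56.0 CPM against 23.4 and 29.9 CPM (log2 0.94, SE 0.21, edgeR adjusted p = 0.000555). In basal-like nuclei it had 146 ± 2.07 against 121 ± 13.2 CPM (SD, n = 2 each; edgeR adjusted p = 0.553). The more distant partner, chr16:25529148-25530147, was lower in fetal libraries over all nuclei (log2 -1.92, edgeR adjusted p = 0.0271), a call lost with DESeq2 (adjusted p = 0.144) and without fetal replicate 2 (edgeR adjusted p = 0.201) or adult replicate 2 (0.283). In basal-like nuclei it had 5.36 ± 3.71 against 30.0 ± 5.90 CPM, with an edgeR adjusted p of 0.0554, which was 0.0369 when scaled by total reads, 0.0154 without fetal replicate 1 and 0.0153 with class 12 added. The 191.9 kb region, to which it was linked, was likewise low in the fetal libraries.

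Trp73, with 10 regions, and Trp53, with 2, had fewer pairs in all. A score of 0.1 or more was reached by 8.8% of the Trp53 pairs, 6.58% of the Trp63 pairs and 1.49% of the Trp73 pairs, against 2.63% of all lines. For Trp73, 3 of 738 pairs reached 0.25, with a highest score of 0.338 between its regions from 154071159 and 154090453. Outside the gene, the first of these scored 0.314 and 0.280 with regions from 154213422 and 154236776, both inside Megf6, and 0.205 with a region from 153768270. Of these 3 linked regions, 2 were called in the stage comparison over all nuclei, where 35.3% of distal regions were. The region from 153768270 had 21.4 and 19.5 CPM in fetal and 1.09 and 2.75 CPM in adult libraries (log2 3.32, SE 0.40, edgeR adjusted p = 2.28e-08). The region from 154236776 had 26.1 and 17.8 CPM against 4.74 and 9.69 CPM (log2 1.53, SE 0.33, edgeR adjusted p = 0.000307). In both regions all fetal values lay above all adult values, and both calls held when any 1 library was left out and with DESeq2. The region from 154213422 had 9.57 ± 2.80 against 6.28 ± 0.919 CPM (SD, n = 2 each) and was not called. In basal-like nuclei edgeR and DESeq2 each called 0 of the 3. Over all distal regions tested there edgeR called 10.7%, so this is no result about the group. Of the 3, 1 had an unadjusted edgeR p under 0.05. That 1, the region from 153768270, had 27.1 ± 15.7 against 7.95 ± 0.823 CPM there (log2 1.87, edgeR adjusted p = 0.139), and passed without fetal replicate 1 (edgeR adjusted p = 0.0426) and with class 12 added (0.00233). For Trp53, 0 of 250 pairs reached 0.25. The highest Trp53 score was 0.226, between the region in Wrap53 and a promoter region from 69395488 in Cyb5d1. The region inside Trp53, from 69580934, scored 0.168 with a distal region from 69706410 near Tnfsf12. The region in Wrap53 also scored 0.167 with a promoter region from 69999919 at Dvl2.

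The motif columns give the openness of sites that carry a factor's motif in a nucleus, as a chromVAR deviation score centred near 0. They do not read the genes' own chromatin, and since p63, p73 and p53 recognise related sequences, a score cannot be laid to 1 protein. The Trp63 column had class means of 3.79 in class 8, 3.06 in class 1, 2.82 in class 4, 2.45 in class 12 and 1.14 in class 14, and was below 0 in the other 9 classes. The Trp73 column had 3.798, 2.95, 3.19, 2.84 and 0.968 in the same classes and was likewise below 0 elsewhere. Both columns moved together over all nuclei (Pearson r 0.87), while r with the Trp53 column was -0.10 for Trp63 and -0.11 for Trp73. The Trp53 column had means from -0.824 in class 6 to 0.469 in class 2 and did not set basal-like nuclei apart. Over the 14 classes, a gene's own level and its motif score had a Pearson r of 0.89 for Trp63, 0.80 for Trp73 and -0.07 for Trp53. The points share libraries and nuclei, so these are descriptions.

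**Figure D5:**
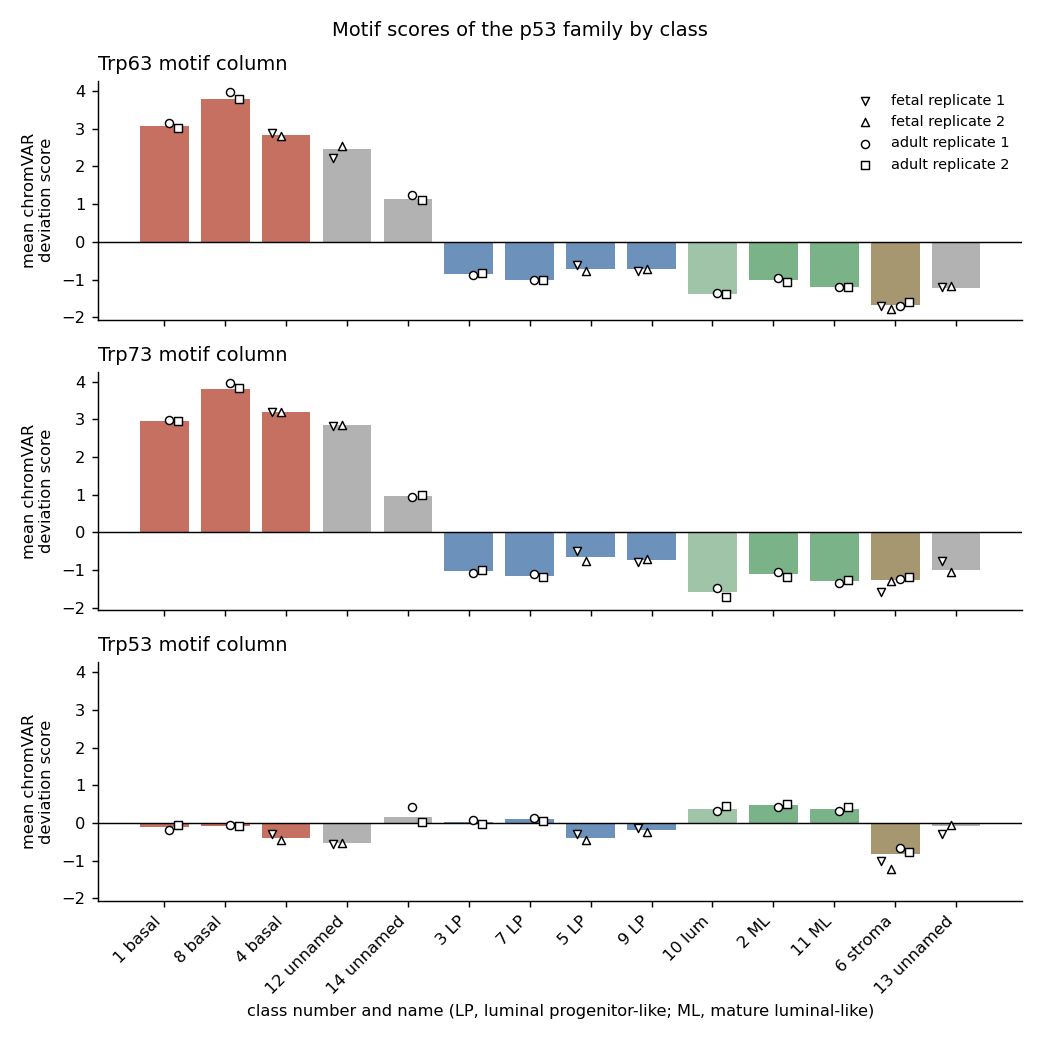
Mean chromVAR deviation score (y axis) of the Trp63, Trp73 and Trp53 motif columns in the 14 classes (x axis); bars are all nuclei of a class and points are libraries with at least 20 nuclei in it. The Trp63 and Trp73 columns are above 0 in classes 1, 8, 4, 12 and 14 and below 0 in the other classes, and the Trp53 column stays between -0.824 and 0.469.

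Library means of the motif scores differed between the stages for 67.9% of the 427 columns (limma, adjusted p under 0.05; 32.3% higher in fetal, 35.6% in adult libraries), so a call here is common. Only 388 of the 427 columns are distinct, and repeated columns were counted and tested separately. The Trp63 column had 0.0799 and 0.424 in fetal and -0.400 and 0.109 in adult libraries, which overlapped (difference 0.40, SE 0.19, limma adjusted p = 0.114). That p was 0.00844 without adult replicate 2, 0.00846 with medians in place of means, 0.0187 in nuclei at or above the median depth and 0.00490 with the replicate number as a block. The Trp73 column had 0.222 and 0.565 in fetal and -0.484 and 0.00851 in adult libraries (difference 0.63, SE 0.19, limma adjusted p = 0.0277). Without fetal replicate 2 that p was 0.135, and without adult replicate 1 0.0641. The Trp53 column was lower in fetal libraries, with -0.258 and -0.371 against 0.183 and 0.163 (difference -0.49, SE 0.06, limma adjusted p = 0.000670), also when any 1 library was left out.

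In basal-like nuclei alone, all 3 motif columns were lower in fetal libraries, a comparison added after the values were seen, in which 214 of 427 columns were called by limma. No library or class was left out in turn in this comparison. limma shares its variance estimate over all columns, so a small p does not measure the spread of 1 column over 2 libraries a stage. The Trp63 column had 2.83 and 2.80 in fetal and 3.46 and 3.33 in adult basal-like nuclei (difference -0.58, SE 0.08, limma adjusted p = 7.96e-09). Its class means were 2.82 in fetal class 4, 3.06 in adult class 1 and 3.79 in adult class 8, so the adult classes also differed from each other. The Trp73 column had 3.11 and 3.17 against 3.35 and 3.31 (difference -0.19, limma adjusted p = 0.0325). The Trp53 column had -0.289 and -0.440 against -0.137 and -0.0754 (difference -0.26, limma adjusted p = 0.00418). For Trp63 and Trp73 the sign over the pooled basal-like classes is thus opposite to that over all nuclei.

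Regulators of p53 were called at 15% and its targets at 25%, against 22.2% of all genes. Of 20 p53 regulators tested over all nuclei, 1 rose in fetal libraries, 2 rose in adult libraries and 17 did not pass. Their median log2 difference was -0.06, against 0.01 for all genes. Mdm2, the ligase that degrades p53, had 56.9 and 57.5 CPM in fetal and 66.9 and 54.3 CPM in adult libraries, and its partner Mdm4 44.3 ± 10.6 against 46.4 ± 0.438 CPM (SD, n = 2 each). Both overlapped between the stages. Cdkn2a, whose Arf product restrains Mdm2, was higher in fetal libraries (log2 0.40, edgeR adjusted p = 0.0408). The DNA damage adaptor Trp53bp1 (log2 -0.46, edgeR adjusted p = 0.0105) and the kinase Hipk2 (log2 -0.35, edgeR adjusted p = 0.0287) were higher in adult libraries. These 3 calls were lost without either fetal library, at edgeR adjusted p of 0.126 and 0.232 for Cdkn2a, 0.0808 and 0.0874 for Trp53bp1 and 0.228 and 0.108 for Hipk2. They were also lost without adult replicate 1 for Cdkn2a (0.132) and Hipk2 (0.0562), and DESeq2 did not call Cdkn2a (0.111), nor did edgeR when scaled by total reads (0.0617). In basal-like nuclei edgeR called 0 of the 20 and DESeq2 0, and 3 had an unadjusted p under 0.05. Over all 16497 genes tested in these nuclei edgeR called 5.96%, so 0 of 20 is no result about the list.

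Of 24 p53 target genes, 1 rose in fetal and 5 in adult libraries and 18 did not pass, with a median log2 difference of -0.10. Cdkn1a, the cell-cycle inhibitor p21, had 74.6 and 69.1 CPM in fetal and 86.6 and 78.2 CPM in adult libraries and was not called (edgeR adjusted p = 0.254). The kinase gene Plk3 (37.3 ± 6.48 against 58.3 ± 4.91 CPM, log2 -0.67), Ccng1, encoding cyclin G1 (31.6 ± 6.97 against 49.6 ± 3.49 CPM, log2 -0.62), and the death receptor gene Fas (42.7 ± 0.956 against 62.1 ± 11.1 CPM, log2 -0.54) were higher in adult libraries, all as SD with n = 2 each. Their edgeR adjusted p were 0.00620, 0.0134 and 0.0175. Bbc3 and Trp53inp1, which promote cell death, were the other 2. Tigar, a regulator of sugar metabolism, was higher in fetal libraries (31.8 ± 6.73 against 20.3 ± 2.06 CPM, log2 0.63, edgeR adjusted p = 0.0264). The call of Plk3 was lost without fetal replicate 2 (0.130) with no flank (0.524) and over the parts that no other gene reaches (0.274), that of Ccng1 without fetal replicate 1 (0.124), and that of Tigar without fetal replicate 1 (0.224) or adult replicate 2 (0.0832) and with DESeq2 (0.0578) or no flank (0.0597). For Fas it was lost without fetal replicate 1 (0.0582), fetal replicate 2 (0.132) or adult replicate 1 (0.105) and with no flank (0.0637). In basal-like nuclei only Fas was called of the 24, against 5.96% of all genes tested there. This 1 call is no result about the list. Fas had 38.7 ± 3.24 against 73.2 ± 15.0 CPM there (log2 -0.87, edgeR adjusted p = 0.0499). That call was lost without fetal replicate 1, fetal replicate 2 or adult replicate 1, with edgeR adjusted p of 0.154, 0.148 and 0.333, without class 1 (0.371) and with DESeq2 (0.210).

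Genes of basal epithelium that are associated with p63 were called in both directions. Of 28 such genes, 10 rose in fetal and 4 in adult libraries and 14 did not pass, 50% called against the 22.2% over all genes, with a median log2 difference of 0.12. DESeq2 called 12 of the 28. The share over all genes was not matched for the number of reads in a gene. The keratin gene Krt14 had 52.6 and 46.3 CPM in fetal and 25.2 and 23.5 CPM in adult libraries (log2 1.02, SE 0.15, edgeR adjusted p = 0.000368). Nrg1, which encodes a growth factor for ErbB receptors, had 583 and 654 against 250 and 378 CPM (log2 0.98, edgeR adjusted p = 0.000428). Igfbp3, a binding protein of insulin-like growth factors, had 43.4 ± 4.59 against 19.2 ± 5.26 CPM (SD, n = 2 each; log2 1.18, edgeR adjusted p = 0.000679). Dst, a linker of hemidesmosomes to the cytoskeleton, was higher in adult libraries, with 335 and 355 against 548 and 575 CPM (log2 -0.70, edgeR adjusted p = 9.69e-05). These 4 calls held when any 1 library was left out. Fermt1 (log2 -0.45, edgeR adjusted p = 0.0142) and Egfr (log2 -0.43, edgeR adjusted p = 0.0176) were also higher in adult libraries, but lost the call without either fetal library (0.118 and 0.0774 for Fermt1, 0.155 and 0.0548 for Egfr). Egfr lost it without adult replicate 2 as well (0.0625). Krt5 and the Notch ligand gene Jag1 did not pass (edgeR adjusted p = 0.569 and 0.0667). Over classes, 22 of the 28 genes had their highest level in a basal-like class, 78.6%, against 16.7% of 14974 genes. The list was chosen as genes of basal epithelium, so a high share was likely from the start and is no test. Krt5, Krt14 and Krt17 are also markers that named these classes.

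Within basal-like nuclei, most called genes of this list were higher in the adult. That was also the direction of Trp63, whose own call was lost under several settings. There 2 of 28 rose in fetal, 6 rose in adult basal-like nuclei and 20 did not pass, 28.6% called against 5.96% over all genes, with a median log2 difference of -0.28. DESeq2 called 5 of the 28. The share over all genes was again not matched for the number of reads in a gene. Krt5 had 28.0 and 36.5 CPM in fetal against 87.1 and 87.4 CPM in adult basal-like nuclei (log2 -1.38, SE 0.27, edgeR adjusted p = 0.00117). Krt17 had 75.7 and 45.6 against 162 and 149 CPM (log2 -1.44, edgeR adjusted p = 0.000136). Both Krt5 and Krt17 are markers that named the basal-like classes, and both are counted in the 28.6%. Lamb3, a chain of the basement membrane protein laminin-332, had 85.5 and 93.9 against 192 and 185 CPM (log2 -1.05, edgeR adjusted p = 0.000887). Krt14 had 60.2 and 66.5 against 139 and 80.4 CPM and did not pass (edgeR adjusted p = 0.0717), and Jag1 had 208 ± 19.2 against 259 ± 20.3 CPM (SD, n = 2 each; edgeR adjusted p = 0.358). Nrg1 stayed higher in fetal nuclei, with 1372 and 1272 against 788 and 869 CPM (log2 0.67, edgeR adjusted p = 0.000169). Zfp750, an epidermal differentiation factor, was the other gene higher in fetal nuclei (34.3 ± 16.9 against 9.48 ± 3.02 CPM, edgeR adjusted p = 0.0142). Zfp750 had 33 and 49 fetal and 14 and 21 adult reads there. In CPM over all reads of a class it was highest in the luminal progenitor-like class 3, at 35.0. Zfp750 stood at 19.9 in class 4, 8.73 in class 8 and 3.81 in class 1. Its call was lost without fetal replicate 1 (0.237), without adult replicate 2 (0.106) and without class 1 (0.301). Without class 1 the edgeR adjusted p was also 0.0570 for Lamb3 and 0.0659 for Nrg1.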

How the data were processed

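The 3 members and all gene lists were chosen with earlier results of these data known. The authors deposited read positions with barcodes, lists of kept barcodes, and region starts and ends as other values with no unit. Bowtie2, MACS2, bedtools and mm10 are named, per the submitters' processing notes, without versions or order; duplicate removal, any shift of cut sites and the settings of chromVAR and Cicero are not given in the sources used here. The authors' deposited count of reads equalled the reads carrying the barcode in every listed nucleus. The authors' deposited scores (chromVAR deviations, Cicero co-accessibility and a Cicero gene accessibility score) were used as they stand. Gene positions came from the RefSeq table of GRCm38.p6.

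Reads of listed nuclei were counted in spans plus 2000 bases and in 1000-base regions with any overlap, and summed per library. Features averaging under 10 reads in the 4 libraries were not tested. Fetal and adult libraries were compared with edgeR 4.0.16 (quasi-likelihood, TMM, Benjamini-Hochberg over all features, threshold 0.05) in R 4.3.3, and motif scores by library means with limma 3.58.1. The SE of an edgeR log2 change is its size over the square root of F. DESeq2 1.42.0 was an alternative. The labels call the replicates biological without naming animals. Scripts were tested on simulated data.

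A class was named where at least 3 markers, and more than 0.5 of a type's list, were raised by 0.5 or more (log2) over the mean of the other classes, no other type had as many, and its leading 10 genes did not go against the name; with equal luminal types and no basal marker, it was called luminal-like. Trp63 regions were named where among the 6 with the most reads or called in a comparison, and in Trp73 and Trp53 all regions. List genes were named where called without overlap of libraries, up to 3 in each direction, and Mdm2, Mdm4, Cdkn1a, Krt5, Krt14, Jag1 and Nrg1 always. The 6 highest outside links were named for Trp63 and 3 for the other members. Bbc3 and Trp53inp1 were named after their values were seen.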

Additional observations from a re-analysis of the deposited data

How the results depend on the processing

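Of 161 recomputed values of the main comparisons, 122 kept their direction and side of the threshold (or stayed within 1.5 times for counts); of 602 for single regions and listed genes, 489 did. Every call that was lost kept its direction, and the cause was not tested. Depth limits the regions in basal-like nuclei, where 2 fetal reads can stand behind a value.

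The log2 change of Trp63 was 0.29 to 0.61 over the fits that each left out 1 library, that of Trp73 0.22 to 0.46, and that of Trp53 -0.0166 to 0.26, the lowest without adult replicate 2. In basal-like nuclei the ranges were -0.75 to -0.46 for Trp63, -0.30 to -0.07 for Trp73 and 0.27 to 1.25 for Trp53. There Trp63 was -0.58 with DESeq2 and -0.36 without class 1, both not called, and Trp73 was 0.0215 without class 8. The motif difference ranged from 0.14 to 0.65 for Trp63, 0.38 to 0.88 for Trp73 and -0.54 to -0.43 for Trp53. For the Trp63 column it was 0.47 with medians and 0.70 in nuclei at or above the median depth, both called. In basal-like nuclei only, the Trp63 column turned to -0.58 and the Trp73 column to -0.19.

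Counts of called features moved as follows. Gene spans gave 4174 calls, and 1812 to 4463 with 1 library left out. Distal regions gave 43423, against 24872 with DESeq2 and 15301 with a mean of at least 50 reads, and promoter regions 3992, against 2622 with DESeq2 and 2514 to 3057 with 1 library left out. In basal-like nuclei gene spans gave 984, against 307 with DESeq2, 554 to 867 with 1 library left out, 1554 with class 12 added, 111 without class 1 and 1674 without class 8. Distal regions gave 2994 there, against 1464 with DESeq2, 186 with a mean of at least 50 reads, 7074 with class 12 added, 474 without class 1, and 0 to 3904 with 1 library left out; the 0 came without adult replicate 1, where edgeR gave 3854 regions an unadjusted p under 0.05.

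With the replicate number as a block, which the labels do not tie to a shared animal or day (correlation of same-numbered deviations 0.258 over gene spans), gene spans gave 6421 calls. Trp73 was then called (log2 0.35, edgeR adjusted p = 0.0124), as was the Trp63 motif column (difference 0.40, limma adjusted p = 0.00490).

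Signs also turned for regions that were not called. Over all nuclei these were the Trp63 region from 25811334 (-0.988 to 0.271 over the fits without 1 library, above 0 without fetal replicate 1 or adult replicate 2), the Trp53 region from 69580934 (-0.154 to 0.0263, above 0 without fetal or adult replicate 1), and the Trp73 regions from 154139343 (-0.0521 to 0.301, below 0 without fetal replicate 2) and from 154141306 (-0.370 to 0.363, below 0 without fetal replicate 2 or adult replicate 1). In basal-like nuclei the Trp63 region from 25779547 had -0.0332 with DESeq2, -0.297 with no filter, -0.193 scaled by total reads, -0.00656 with the replicate block, -0.271 with class 12 added, -0.319 without class 8, and -0.223 to 0.104 with 1 library left out (below 0 without adult replicate 1 or fetal replicate 2). The region from 25834931 had -0.213 with no filter, -0.108 scaled by total reads, -0.0818 with class 12 added, and -0.226 to 0.468 with 1 library left out (below 0 without adult replicate 2 or fetal replicate 1), and that from 25843603, at -0.64 in basal-like nuclei and 0.73 over all nuclei, had 0.17 there without class 1. The linked Trp63 region from 25623891, at 0.29 there, had -0.0201 with no filter and -0.0138 with class 12 added, and the linked Trp73 region from 154236776, at 0.20, had -0.103 with no filter.

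The number of Trp63 pairs was 103 at a Cicero score of 0.1 and 0 at 0.5, against 25 at 0.25; for Trp73 it was 11 and 0, against 3, and for Trp53 22 at 0.1, against 0. The level of Trp73 in adult basal-like over luminal progenitor-like nuclei was 1.83 (log2) and 2.02 with no flank, and that in fetal nuclei 0.93 and 1.18.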

Other observations

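In the deposited Cicero gene accessibility score, whose numbered columns name no library and were used as 1 pooled table, Trp63 was above 0 in 989 columns (12.6%) and Trp73 in 169 (2.15%); Trp53 was not analysed there. The motif columns whose scores ran closest to Trp63 over the nuclei, after Trp73, were Ubp1 (Pearson r 0.29) and Nfic (0.29). For Trp73 they were Sox13 (0.30) and Sox9 (0.29). For the Trp53 column they were Foxa3 (0.27), Foxa1 (0.27) and Foxc1 (0.26), forkhead factors of which Foxa1 is a mature luminal marker. These are descriptions over nuclei of 4 libraries.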
